A study of Mus musculus with 29 samples.

Results

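The neutrophil genes followed here are 10 genes chosen by name: S100a8, S100a9, Cd177, Retnlg, Csf3r, Mmp8, Mmp9, Ngp, Camp and Ltf. Every probe set that the platform annotation gives to 1 of them was read in all 29 arrays. Of the 10 genes, 9 had a probe set, and these 9 had 10 probe sets among the 45101 on the array, since Mmp9 has 2. Retnlg, which encodes a resistin-like protein of granulocytes, was paired with no probe set by the annotation used and was not analysed here. After a filter on low values 8 of the genes were among the 14602 tested. Camp did not pass it and is described by its values.

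The arrays hold RNA of lung tumours from mice in which the CCSP promoter, active in airway epithelium, drives the transactivator rtTA. In the presence of doxycycline rtTA switches on transgenes under the TRE promoter. The groups were 6 TI-KM recurrences and 14 TI-KM primary tumours (CCSP-rtTA;TRE-KrasV12; TRE-Mad2), 8 TI-K primary tumours (CCSP-rtTA;TRE-KrasV12) and 1 normal lung (CCSP-rtTA). All mice were of a mixed 129/Bl6 background and carried CCSP-rtTA, and ages, times on or off doxycycline and sexes are not stated in the labels used here. The series title speaks of relapse after the oncogene is withdrawn, which makes the recurrences against TI-KM primaries its central comparison. The titles of TI-KM primaries 1 and 2 carry the same number, 76, and both tumours may be of 1 mouse. The p-values measure the spread between these samples, and the number of arrays limits the precision. All samples are whole tissue, so fewer neutrophils and less RNA per neutrophil cannot be told apart.

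Neutrophils are short-lived phagocytes made in the bone marrow under the growth factor G-CSF and drawn into tissue by chemokines. Their granules are filled in stages during maturation, so the transcripts of granule proteins such as Ngp, Camp and Ltf peak in marrow precursors, while S100a8 and S100a9 remain abundant in mature cells. Neutrophils are a large part of the immune infiltrate of many lung tumours. Several of these genes are also expressed in other cells: Ltf in glandular epithelium, Mmp9 in macrophages and tumour cells, and the S100 genes in monocytes. Which cells gave each signal here, that of Cd177 included, was not tested.

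Promoter windows are shown for the genes on which the results turn: S100a8 and S100a9, whose signals moved together over the tumours, and Cd177 and Ngp, the genes that passed the test. Each is the 250 bases before the transcript start in the RefSeq table of build GRCm38.p6, written 5′ to 3′ on the strand of the gene. Capitals mark matches on either strand to TTGCNNAA, a core sequence of C/EBP sites, or to GAGGAA, a core sequence of PU.1 sites; C/EBP factors and PU.1 direct granulocyte development. No match of one overlapped a match of the other. The RefSeq span of Cd177 ends at base 24760334, so its window, which begins at 24760312, lies partly inside that span. The windows are chr3:90668821-90669070 (plus strand) for S100a8, chr3:90695722-90695971 (minus strand) for S100a9, chr7:24760312-24760561 (minus strand) for Cd177 and chr9:110419558-110419807 (plus strand) for Ngp.
S100a8: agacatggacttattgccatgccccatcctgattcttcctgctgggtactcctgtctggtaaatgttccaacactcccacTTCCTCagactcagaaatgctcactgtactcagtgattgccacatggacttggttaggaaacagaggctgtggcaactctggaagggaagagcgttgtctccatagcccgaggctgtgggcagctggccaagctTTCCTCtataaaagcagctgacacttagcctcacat
S100a9: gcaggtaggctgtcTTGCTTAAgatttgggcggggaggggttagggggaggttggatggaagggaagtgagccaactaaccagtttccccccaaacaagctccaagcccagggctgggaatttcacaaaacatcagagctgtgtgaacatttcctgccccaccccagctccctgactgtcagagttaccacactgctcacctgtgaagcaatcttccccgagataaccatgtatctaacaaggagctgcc
Cd177: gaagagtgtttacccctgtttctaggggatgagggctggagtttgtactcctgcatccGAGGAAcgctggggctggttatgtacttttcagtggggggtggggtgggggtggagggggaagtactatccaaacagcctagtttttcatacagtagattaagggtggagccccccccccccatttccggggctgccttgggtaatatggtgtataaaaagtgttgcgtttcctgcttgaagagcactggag
Ngp: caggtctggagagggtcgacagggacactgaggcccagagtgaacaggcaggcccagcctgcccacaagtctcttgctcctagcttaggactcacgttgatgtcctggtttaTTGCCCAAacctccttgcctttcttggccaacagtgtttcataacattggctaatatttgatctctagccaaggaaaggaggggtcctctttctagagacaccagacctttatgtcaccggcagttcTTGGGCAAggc
The S100a8 window held GAGGAA on the opposite strand, starting 170 and 36 bases before the transcript start. The S100a9 window held TTGCNNAA once, 236 bases before it. The Ngp window held TTGCNNAA at 138 bases before the start and, on the opposite strand, at 11 bases before it. The Cd177 window held GAGGAA once, at 192 bases. Over the 9 members with a window in the table, 5 held TTGCNNAA and 5 held GAGGAA, against 9.56% and 23.3% of the 32851 windows of the same length. A match is a description of the letters and not evidence of binding.

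The tumour arrays differed in ways no label names, and several members differed with them. The signal of the 18S ribosomal control was 12665 to 24001 in 10 tumours (recurrences 1 to 4 and TI-KM primaries 1 to 6) and 5939 to 10857 in 13 others. The last 5 tumours, TI-K primaries 1 to 5, have title numbers above 6000 with 7616 to 8523 for the 18S control. The high-18S set thus holds only TI-KM samples. The median signal of an array was 122 to 170 in this set and 69.9 to 111 in the other tumours. The normal lung stood at 12569. The log2 ratio of 3' to 5' control probe sets, a sign of RNA integrity, was 1.32 ± 0.45 in recurrences, 2.16 ± 0.67 in TI-KM primaries and 2.16 ± 0.41 in TI-K primaries (SD, n = 6, 14 and 8). As a check of the tissue, all 12 markers of lung epithelium passed the filter. Their summed signal was 92297 to 159410 in recurrences, 105880 to 175959 in TI-KM primaries and 112189 to 149548 in TI-K primaries, against 75860 in the normal lung.

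**Figure D1:**
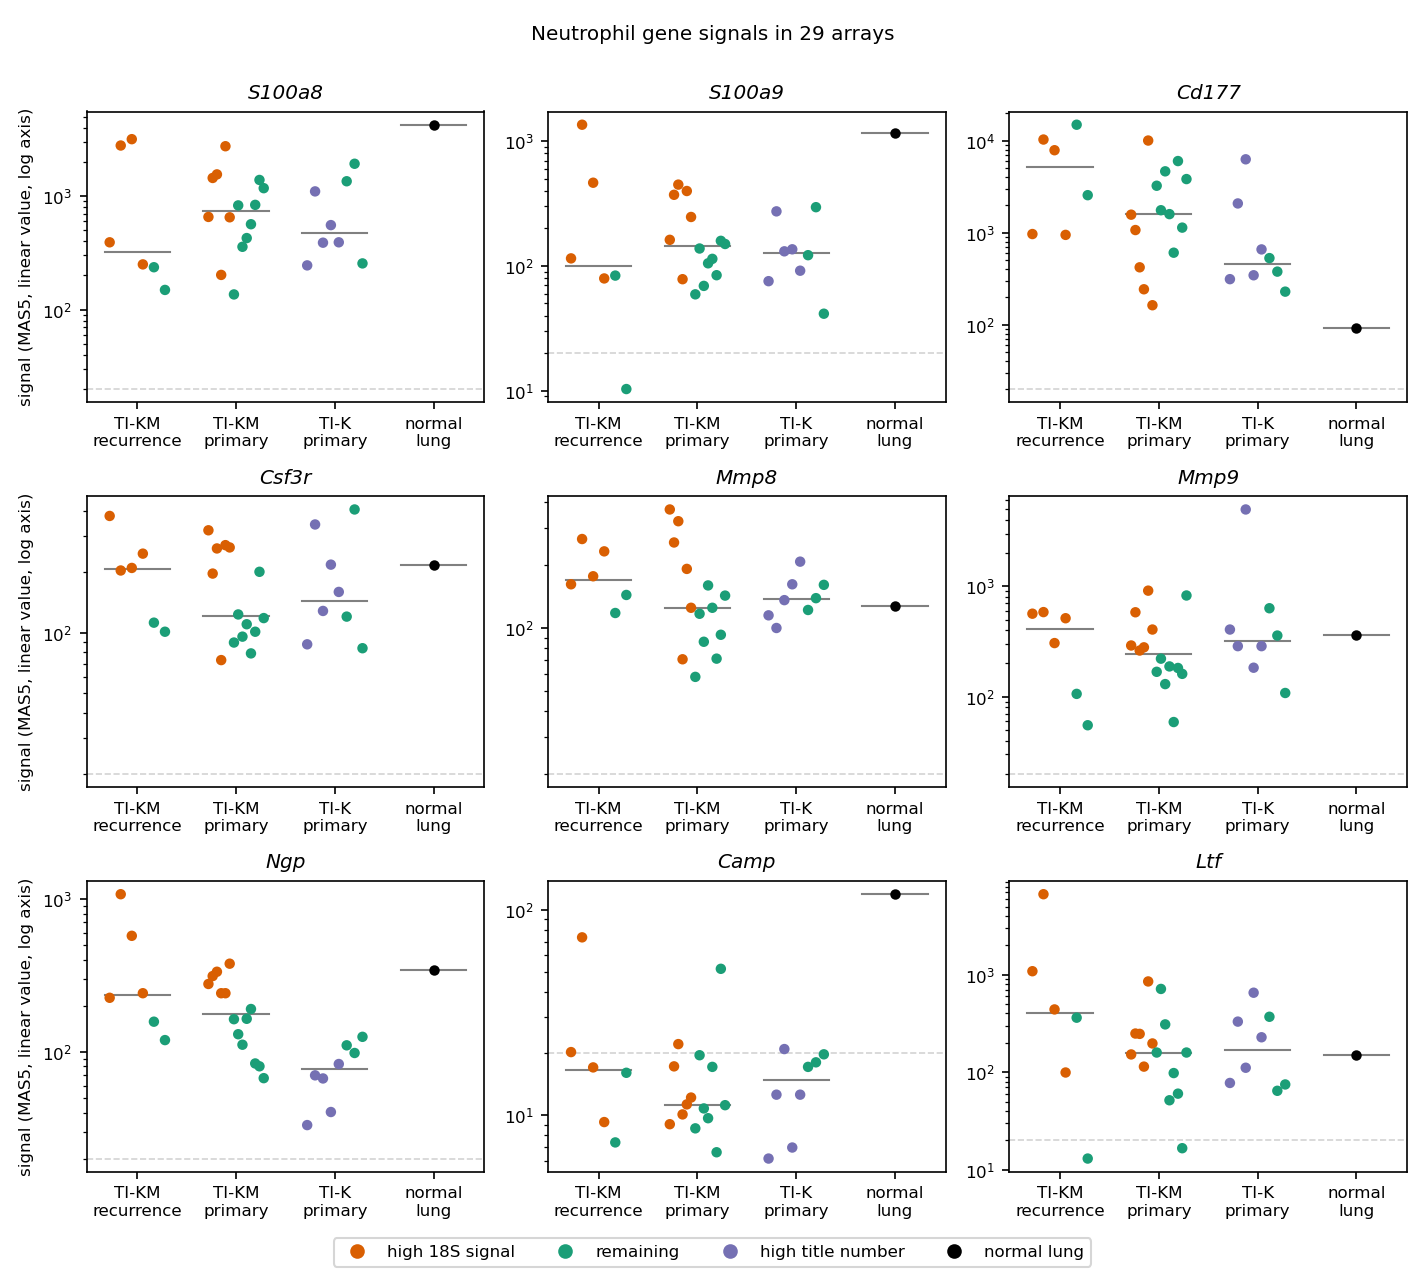
Signal of the 9 measured neutrophil genes in all 29 arrays, on a log axis, with 1 point per array, the group median as a grey line, the offset of 20 dashed, and the array sets in colour (high 18S signal, remaining arrays, high title number). Mmp9 is drawn with its brighter probe set. S100a8, S100a9 and Camp are highest in the normal lung or close to it, Cd177 is lowest there, and all high-18S points for Ngp (225 to 1070) lie above the other tumours (33.1 to 190).

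The alarmin genes S100a8 and S100a9 encode the subunits of calprotectin, a protein that binds calcium and zinc and fills the neutrophil cytosol. In recurrences 1 to 6 the S100a8 signal was 391, 2779, 3160, 250, 236 and 149. In TI-KM primaries it was 136 at the lowest, 740 at the median and 2739 at the highest, and in TI-K primaries 245, 473 and 1920. Recurrences 2 and 3 lay above every primary tumour, and the other 4 recurrences lay below the TI-KM median, so the groups overlapped. S100a9 followed with 115, 1357, 465, 79.4, 83.7 and 10.3 in recurrences 1 to 6. It was 59.2, 144 and 449 (lowest, median, highest) in TI-KM primaries and 41.4, 127 and 296 in TI-K primaries. Again recurrences 2 and 3 exceeded every primary tumour, while recurrence 6 was the lowest of all 28 tumours.

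For recurrences against TI-KM primaries the log2 change was -0.30 ± 0.58 (SE) for S100a8 and 0.01 ± 0.51 for S100a9 on the log2(signal + 20) scale, with limma adjusted p of 0.853 and 0.994. These means combine 2 high and 4 low recurrences. Recurrences 2 and 3 held the highest values of both genes among the tumours, so leaving them out could only lower these changes. Without them, a choice made after the data were seen, the log2 changes were -1.47 for S100a8 and -1.10 for S100a9. Their limma adjusted p were 0.288 and 0.34. In that comparison 0 of the 8 neutrophil genes tested passed, and 0 of 8 had an unadjusted p below 0.05; over all genes 0.26% were called and 1809 had such a p. The log2 changes of the 8 ranged between -0.30 and 1.35 with a median of 0.34, beside a median of 0.04 over all genes.

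Ltf encodes lactoferrin, the iron-binding protein of secondary granules. Its signal in recurrences 1 to 6 was 1085, 6686, 440, 99.2, 362 and 13. It was 16.6, 159 and 852 (lowest, median, highest) in TI-KM primaries and 64.4, 170 and 653 in TI-K primaries. Recurrences 1 and 2 exceeded every primary tumour. Recurrence 6 and TI-KM primary 13 both lay under the offset of 20, below the other tumours, and have no order between them. The log2 change was 1.16 ± 0.71 (SE) for recurrences against TI-KM primaries and 1.07 ± 0.79 against TI-K primaries, with limma adjusted p of 0.525 and 0.337. Without recurrences 2 and 3 the log2 change against TI-KM primaries was 0.12.

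Cd177 encodes a glycoprotein anchored to the neutrophil surface. Its signal in recurrences 1 to 6 was 968, 10309, 7889, 948, 14937 and 2561. In TI-KM primaries it was 163, 1583 and 10053 (lowest, median, highest), and in TI-K primaries 229, 454 and 6285. Recurrences 5 and 2 held the highest signals of the series and exceeded every primary tumour, and recurrence 3 exceeded every TI-K primary. The lowest recurrence, at 948, lay above 6 of the 8 TI-K primaries; the exceptions were TI-K primary 3 at 6285 and TI-K primary 2 at 2082.

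Against TI-K primaries, Cd177 was 5.41-fold higher in recurrences (log2 change 2.44 ± 0.83 SE, limma adjusted p = 0.0391). The log2 change against TI-KM primaries was 1.35 ± 0.75 (adjusted p = 0.469), and that of TI-KM against TI-K primaries was 1.09 ± 0.68 (adjusted p = 0.296). The call for recurrences against TI-K primaries held in 20 of the 29 fits that each left out 1 array, with an adjusted p between 0.0189 and 0.0976. It was lost without recurrence 2, 3 or 5, where the log2 change was 2.15, 2.22 or 2.04, and without TI-K primary 1, 4, 5, 6, 7 or 8, where it was 2.22 to 2.43. Without recurrences 2 and 3 together it was 1.81 (adjusted p = 0.221). With the array sets as a block the log2 change was larger, at 4.21, and among the remaining arrays alone 4.04, with limma adjusted p of 0.12 and 0.0822. The value among the remaining arrays rests on 2 recurrences (2561 and 14937) and 3 TI-K primaries (229 to 530). The fit with the block also draws on the high-18S recurrences and TI-KM primaries.

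Ngp encodes neutrophilic granule protein, a relative of the cathelicidins found in the granules of mouse neutrophils and their precursors. Its signal in recurrences 1 to 6 was 225, 1070, 572, 241, 157 and 119. In TI-KM primaries it was 67.1, 177 and 376 (lowest, median, highest), and in TI-K primaries 33.1, 76.5 and 125. Of the 6 recurrences 5 lay above every TI-K primary, as did 10 of the 14 TI-KM primaries, and recurrences 2 and 3 exceeded every TI-KM primary.

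Ngp was 3.4-fold higher in recurrences than in TI-K primaries (log2 change 1.76 ± 0.39 SE, limma adjusted p = 0.00429) and 2.09-fold higher in TI-KM than in TI-K primaries (1.06 ± 0.32, adjusted p = 0.0405). The log2 change of recurrences against TI-KM primaries was 0.70 ± 0.36 (adjusted p = 0.424). Both calls use the same 8 TI-K arrays. With Cd177, Ngp makes 2 of the 8 genes called in recurrences against TI-K primaries, both higher, where 18.8% of all genes were called and 12.2% were called higher. Ngp is the 1 of 8 called in TI-KM against TI-K primaries, where 7.99% of all genes were called and 5.5% were called higher. The median log2 change of the 8 genes was 0.28 in the first and 0.10 in the second, beside 0.113 and 0.079 over all genes.

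The Ngp signal differed between the sets defined by the 18S control. In the 10 high-18S tumours it was 225 to 1070, above the 33.1 to 190 of the 18 other tumours, and Ngp was the only one of the 9 measured genes for which these sets did not overlap. The share of all genes that separate these sets in the same way was not counted, so the separation cannot be read as particular to Ngp. Over the 28 tumours the log2 Ngp signal had an r of 0.73 with the log2 18S signal, as a description of arrays that share a scaling. This r spans the array sets, and its value within each set was not computed. With the array sets as a block the log2 change was 0.42 for recurrences against TI-K primaries (adjusted p = 0.714) and 0.03 for TI-KM against TI-K primaries (adjusted p = 1). Among the remaining arrays Ngp was 119 and 157 in 2 recurrences, 67.1 to 190 in 8 TI-KM primaries and 98 to 125 in 3 TI-K primaries. Without recurrences 2 and 3 the log2 change against TI-K primaries was 1.09 (adjusted p = 0.075). The call for TI-KM against TI-K primaries held in 18 of the 29 fits that left out 1 array, and was lost without any 1 of TI-K primaries 1 to 5 or TI-KM primaries 1 to 6 (adjusted p 0.0581 to 0.0997).

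**Figure D2:**
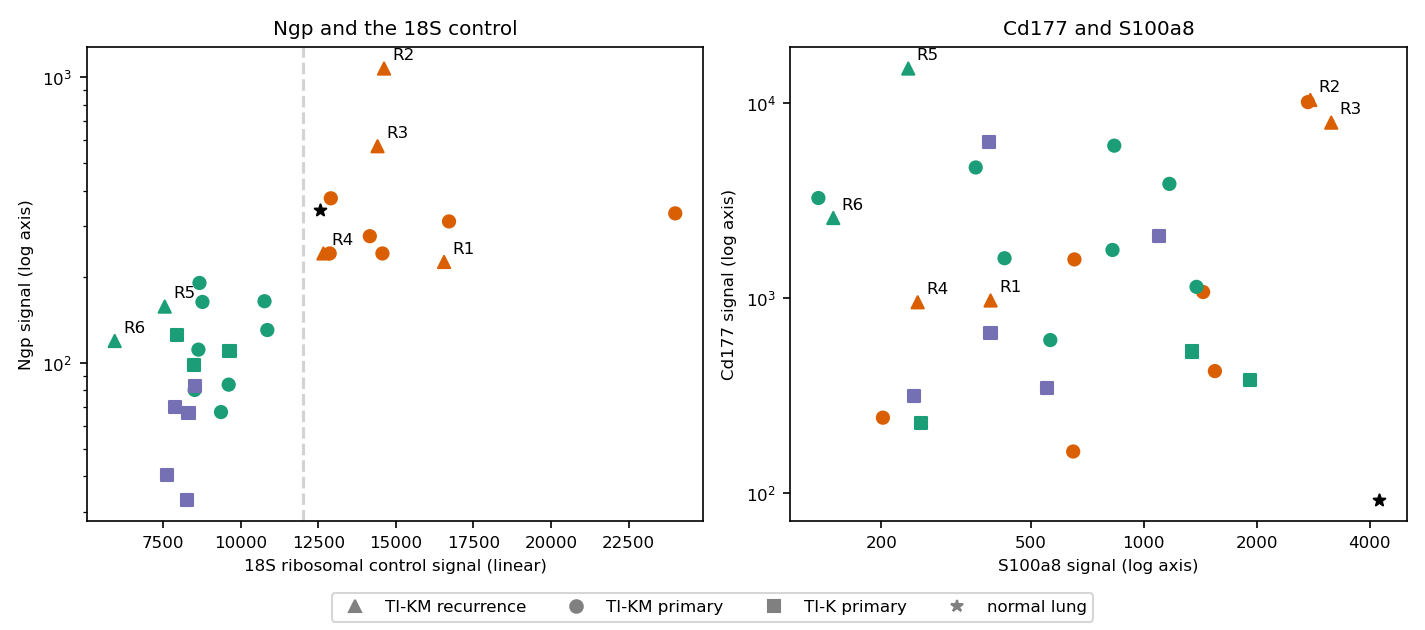
Left, Ngp signal (log axis) against the 18S ribosomal control signal (linear axis) with the threshold of 12000 dashed. Right, Cd177 signal against S100a8 signal (both log axes). Each point is 1 of 29 arrays, shape gives the group, colour the array set (orange high 18S, green remaining, purple high title number, black normal lung), and the 6 recurrences carry their numbers. Recurrence 5 has the highest Cd177 signal (14937) with a low S100a8 signal (236), while recurrences 2 and 3 are high in both.

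**Figure D3:**
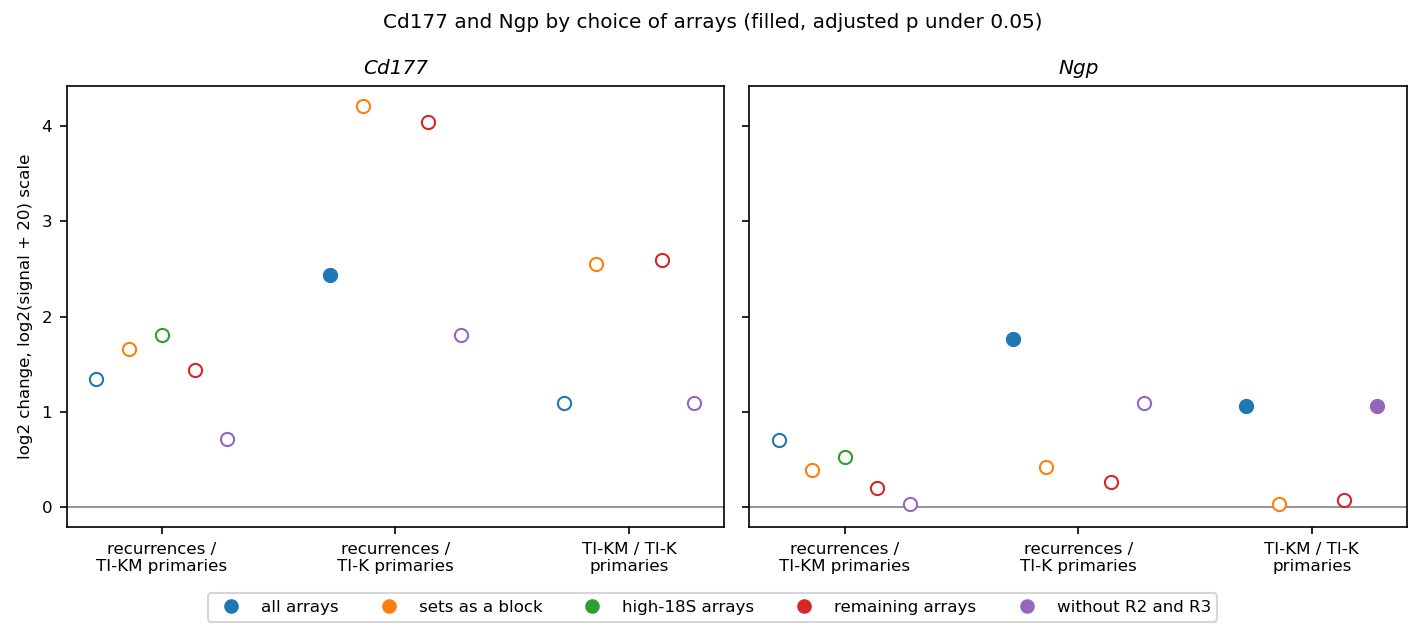
Log2 change of Cd177 and Ngp on the log2(signal + 20) scale in the 3 comparisons of tumour groups, fitted over all 29 arrays, with the array sets as a block, within the high-18S or the remaining arrays, and without recurrences 2 and 3. Filled points have a limma adjusted p below 0.05. The Cd177 change against TI-K primaries grew to 4.21 with the block, and the Ngp change was 0.42 with it.

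Csf3r encodes the receptor for G-CSF. Its signal in recurrences 1 to 6 was 378, 203, 209, 246, 112 and 101, against 73.1, 120 and 321 (lowest, median, highest) in TI-KM primaries and 83.7, 144 and 407 in TI-K primaries. Only recurrence 1 exceeded every TI-KM primary, and none exceeded TI-K primary 7 at 407. Mmp8 encodes neutrophil collagenase. Its signal was 162, 267, 177, 233, 118 and 144 in recurrences 1 to 6, against 58.3, 125 and 370 in TI-KM primaries and 100, 138 and 208 in TI-K primaries. Recurrences 2 and 4 lay above every TI-K primary, and none lay above every TI-KM primary.

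Mmp9 encodes gelatinase B, stored in neutrophil gelatinase granules. Its brighter probe set read 565, 584, 306, 514, 106 and 55.1 in recurrences 1 to 6, 58.9, 242 and 914 (lowest, median, highest) in TI-KM primaries and 108, 323 and 4973 in TI-K primaries. The top value belonged to TI-K primary 3, which also held the highest value of the dimmer probe set, at 1749, and the highest Cd177 signal of its group. The dimmer probe set read 157, 14.5, 27.9, 109, 39.6 and 4.02 in recurrences 1 to 6, so the probe sets placed recurrence 2 differently: it ranked 5 of 28 tumours on the brighter and was 1 of the 6 tumours under the offset of 20 on the dimmer. For Csf3r, Mmp8 and Mmp9 the limma test called no change in any of the 6 comparisons between groups.

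The alarmins were low in tumours beside the normal lung. S100a8 was 136 to 3160 in the 28 tumours, against 4235 in the normal lung, which exceeded all of them. S100a9 was 10.3 to 1357 in the tumours, against 1175 in the normal lung, and only recurrence 2 lay above that value. The log2 change of S100a9 was -2.78 ± 1.14 (SE) in recurrences, -2.79 ± 1.09 in TI-KM primaries and -3.04 ± 1.12 in TI-K primaries, each against the normal lung. Their limma adjusted p of 0.11, 0.0847 and 0.0682 missed the threshold. S100a8 gave -2.85, -2.55 and -2.79 in the same order, with adjusted p of 0.153, 0.183 and 0.153. The 3 comparisons share 1 normal array, whose own spread is unknown and was assumed equal to that of the tumour groups.

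Ngp was 33.1 to 1070 in the tumours, 25 of 28 of them below the 342 of the normal lung, with log2 changes of -0.19, -0.89 and -1.95 in recurrences, TI-KM primaries and TI-K primaries (adjusted p = 0.81, 0.5 and 0.0934). Camp encodes the precursor of the antimicrobial peptide cathelicidin. Its signal in recurrences 1 to 6 was 20.3, 73.4, 17.1, 9.27, 7.38 and 16.1, with 6.61, 11.3 and 51.6 (lowest, median, highest) in TI-KM primaries and 6.16, 14.9 and 21.0 in TI-K primaries, against 119 in the normal lung. The normal lung exceeded all 28 tumours, and most tumour values lie under the offset of 20. Only the normal array was above the filter for Camp, so no test is given for it.

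Cd177 ran the other way. It was 163 to 14937 in the 28 tumours, all of them above the 92.3 of the normal lung. Its log2 change was 5.08 ± 1.65 (SE) in recurrences, a 33.9-fold higher signal (limma adjusted p = 0.0396), 3.73 ± 1.58 in TI-KM primaries (adjusted p = 0.119) and 2.65 ± 1.62 in TI-K primaries (adjusted p = 0.324). The call for recurrences was lost without recurrence 2, 3 or 5, where the log2 change was 4.79, 4.87 or 4.69 (adjusted p 0.0572 to 0.0613). That was 1 of 8 genes tested, where 12.6% of all genes were called and 6.46% were called higher. For TI-KM primaries 0 of 8 passed (3 at an unadjusted p below 0.05; 14.9% of all genes called), and for TI-K primaries 0 of 8 (3 unadjusted; 13.5%).

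Markers of red cells and platelets were mixed between the tumours and the normal lung, although their sum was highest in the normal lung. The 8 tested markers of red cells and platelets had a summed signal of 3915 to 10659 in recurrences, 2201 to 15473 in TI-KM primaries and 1903 to 9152 in TI-K primaries, against 21101 in the normal lung. Against the normal lung, 3 of the 8 were called lower and 1 higher in TI-KM primaries and in TI-K primaries. In recurrences 3 were called lower and 0 higher. Over all genes 14.9%, 13.5% and 12.6% were called either way in TI-KM primaries, TI-K primaries and recurrences. Hba-a2 was 12.4 in the normal lung, 10.9 to 95.6 in recurrences, 43.8 to 154 in TI-KM primaries and 85.6 to 181 in TI-K primaries. The part of these markers in the higher S100a8, S100a9, Ngp and Camp signals of the normal array was not tested.

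Correlations between the members over the tumours varied. Over 28 tumours S100a8 and S100a9 had the highest correlation of log2 signals of any pair (r = 0.86, and 0.88 within groups and array sets). S100a9 had r of 0.62 with Ltf, 0.60 with Csf3r and 0.57 with Ngp, of which those with Ltf and Ngp were 0.44 and 0.40 without recurrence 2. Cd177 had r of -0.06 to 0.31 with the other members over the tumours, and 0.08 to 0.54 within groups and array sets, highest with Mmp9 (0.54), S100a8 (0.50) and S100a9 (0.48). Ngp and Camp, both cathelicidin relatives on chromosome 9, had r of 0.41, or 0.08 without recurrence 2. All these points share array scaling, and the values are given as a description.

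Individual recurrences differed widely. Ranked by the mean z-score of the 8 tested genes over the 28 tumours, recurrence 2 was first (mean z of 1.78) and was among the top 3 tumours for 6 of the 8 genes. Recurrence 3 ranked 3, recurrence 1 ranked 7, recurrence 4 ranked 13 and recurrence 5 ranked 17, while recurrence 6 was last with a mean z of -1. TI-KM primary 5 ranked 2. Recurrences 5 and 6 are in the remaining set and recurrences 1 to 4 in the high-18S set. Recurrence 5 had the highest Cd177 signal of all arrays together with S100a8, S100a9 and Mmp9 ranks of 25, 21 and 26 of 28. Whether neutrophils or other cells gave the Cd177 signal was not tested.

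**Figure D4:**
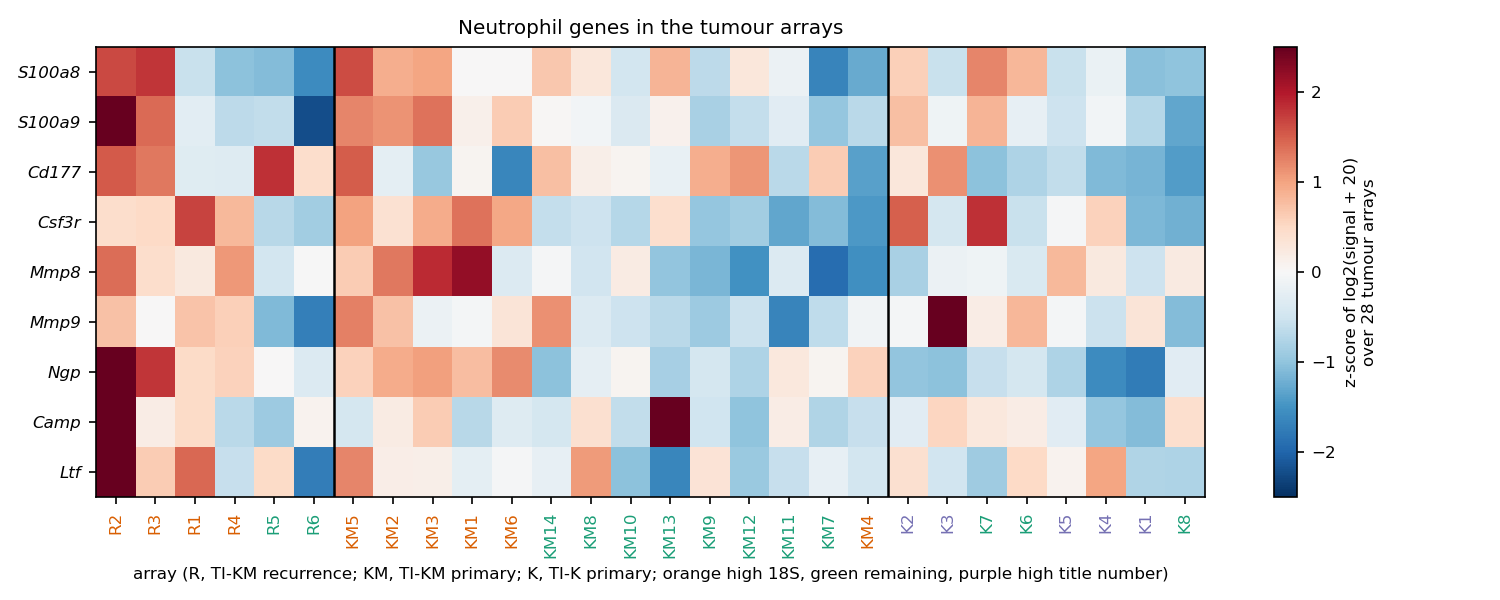
Z-scores of log2(signal + 20) of the 9 measured neutrophil genes over the 28 tumour arrays, with the colour scale ending at 2.5 either way. Columns are arrays ordered within recurrences, TI-KM primaries and TI-K primaries by the mean z-score, and the label colour gives the array set. Recurrence 2 is dark red for S100a9, Ngp, Camp and Ltf, and recurrence 6 is blue for S100a8, S100a9, Mmp9 and Ltf.

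The genes whose pattern over the 28 tumours was most like the mean z-score of the 8 members were Selp (r = 0.856), Rab33a (0.806), Plekhg3 (0.789), Cacng3 (0.78), Aspa (0.773), Cdh7 (0.769), Ppp1r32 (0.769), Qsox1 (0.764), Zfp652os (0.763) and Cant1 (0.76). Selp encodes P-selectin, an adhesion molecule of endothelium and platelets on which neutrophils roll. Its signal was 265, 732, 521, 223, 256 and 62.8 in recurrences 1 to 6, highest in recurrence 2 and lowest in recurrence 6 among the recurrences. Without recurrence 2 its r was 0.80. Rab33a, Cacng3 and Cdh7 were weak, with median signals of 41.2, 34.8 and 48.9 over the tumours and some values under the offset of 20. The tumours ranked 1 to 7 by the mean z-score were all of the high-18S set. The part of the array sets in these r values was not tested.

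Other genes of neutrophils were read from lists. No list held a called gene in recurrences against TI-KM primaries. Of 16 other granule and effector genes tested, 1 was called in recurrences against TI-K primaries, a smaller share than the 18.8% of all genes called there. This was Olfm4, which encodes olfactomedin 4 of specific granules, and it was higher (log2 change 1.60 ± 0.51 SE, adjusted p = 0.0278). Olfm4 read 189, 218, 75.7, 20.4, 307 and 12.6 in recurrences 1 to 6, against a median of 9.37 and a highest value of 82.5 in TI-K primaries. Of 23 surface and signalling genes 2 were called, also a smaller share. Ifitm6 was higher (1.25 ± 0.41, adjusted p = 0.0337) and Fcgr3, an Fc receptor shared with macrophages, was lower (-0.98 ± 0.35, adjusted p = 0.0457). Over the tumours the mean log2 signal of the granule and effector list had r from 0.11 with Cd177 to 0.54 with Ltf among the measured members. For the surface and signalling list r ran from -0.29 with Cd177 to 0.51 with Csf3r.

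Among 15 tested growth factors and attractants of neutrophils, 3 fell in recurrences against TI-K primaries and none rose, where 6.64% of all genes were called lower. Csf2, which encodes GM-CSF, fell by 1.43 on the log2 scale (adjusted p = 0.0188). Its signal was 28.7, 207, 20.7, 467, 245 and 433 in recurrences 1 to 6, against 277, 449 and 871 (lowest, median, highest) in TI-KM primaries and 271, 449 and 831 in TI-K primaries. Recurrences 1, 2, 3 and 5 lay below every primary tumour. Against TI-KM primaries its log2 change was -1.56 with an adjusted p of 0.0642. There Csf2 was called in 2 of the 29 fits that each left out 1 array (lowest limma adjusted p = 0.023). The chemokine genes Cxcl1 and Cxcl2, ligands of the neutrophil receptor Cxcr2, fell by 1.34 and 1.40 (adjusted p = 0.0179 and 0.0464). The Cxcl1 call was lost without probe sets named _x_at or _s_at (limma adjusted p = 0.0555). That of Cxcl2 was lost with an offset of 100, no filter or a filter at the 60th percentile (adjusted p 0.0518 to 0.0534). With only the 2 groups compared the Csf2 and Cxcl2 calls were lost (adjusted p = 0.0623 and 0.0963). Of 8 granulocyte transcription factors, Runx1 was lower (-0.87 ± 0.26, adjusted p = 0.0221), but its change was -0.24 with the mean of all its probe sets (adjusted p = 0.352) and missed the threshold with arrays scaled to a common median (adjusted p = 0.0561). With the array sets as a block none of these 7 calls remained (limma adjusted p 0.151 to 0.672), and each kept its sign. With the 3'/5' ratio as a covariate only the Csf2 call held (adjusted p = 0.0475), and the other 6 had limma adjusted p of 0.0856 to 0.218. Without recurrences 2 and 3 the calls for Cxcl1 and Runx1 held, and those for Csf2, Cxcl2, Fcgr3, Ifitm6 and Olfm4 did not (adjusted p 0.0542 to 0.388), with the Fcgr3 change at -0.48.

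Against the normal lung the granule list split, with 6, 5 and 6 of the 16 tested genes higher in recurrences, TI-KM primaries and TI-K primaries, and 0, 1 and 1 lower. Over all genes 6.46%, 7.75% and 6.74% were called higher, and 7.16% and 6.79% were called lower in TI-KM and TI-K primaries. Genes picked after their values were seen were Lcn2, Chil3, Pglyrp1, Lyz2 and Cyba, which were higher in all 3 tumour groups; most are also expressed by lung epithelium or macrophages. With arrays scaled to a common median the Lyz2 and Cyba calls were lost in all 3 groups (limma adjusted p 0.0637 to 0.235). With only the 2 groups compared those of Lyz2, Cyba and Pglyrp1 were lost in recurrences (adjusted p 0.12 to 0.184), and with the 3'/5' ratio as a covariate that of Cyba in recurrences (adjusted p = 0.0672). Lcn2, which encodes an iron-scavenging lipocalin, had log2 changes of 6.06, 6.16 and 6.12 in recurrences, TI-KM primaries and TI-K primaries. Prtn3, which encodes a serine protease of primary granules, was lower in TI-KM primaries (-1.82, adjusted p = 0.0453) and TI-K primaries (-1.92, adjusted p = 0.0414), and its change was -1.74 in recurrences (adjusted p = 0.0771). Both Prtn3 calls were lost with an offset of 1, median scaling, quantile normalization, only the 2 groups compared or every probe set tested separately (adjusted p 0.05 to 0.137).

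Markers of other cells varied beside these results, where the counts compare with 18.8% of all genes called in this comparison, 12.2% higher and 6.64% lower. In recurrences against TI-K primaries, the mast cell protease genes Tpsb2 and Cpa3 were higher and Siglecf lower among 8 tested markers of eosinophils, basophils and mast cells. The mast cell tryptase gene Tpsab1 and the basophil protease gene Mcpt8 had log2 changes of -1.15 each, opposite in sign to Tpsb2 and Cpa3, with limma adjusted p of 0.109 and 0.281. Of 13 monocyte and macrophage markers 1 was called, Mertk, which was lower. Of 8 red cell and platelet markers, Hba-a1 was higher and Hba-a2 lower by the same 1.23 on the log2 scale, and of 9 lymphocyte markers Cd8a was higher. The mean log2 signal of the red cell and platelet markers had an r of 0.75 with Ngp over the 28 tumours, and 0.04 with Cd177. The 13 monocyte and macrophage markers summed to 23536 to 61988 in recurrences, 18912 to 38101 in TI-KM primaries and 22058 to 39893 in TI-K primaries, and the 9 lymphocyte markers to 1386 to 26005, 1069 to 3080 and 1046 to 2291. Recurrence 1 held both highest sums. No marker was at 0, since the smallest deposited value was 0.0251. Their part in the neutrophil gene signals was not tested.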

How the data were processed

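The deposited values are intensities, 1 per probe set and array, on a linear scale, made with MAS5 per the submitters' processing notes (version not given in the sources used here), from RNeasy total RNA and a 2-cycle target preparation per the labels. Since all arrays share a 2% trimmed mean of 500, no further scaling was applied, although their median signals ran from 69.9 to 170. Arrays have no read depth; their number limits the precision.

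Of 45101 probe sets, 34958 named 1 gene in the platform annotation and 34754 were matched by gene identifier to the RefSeq table of GRCm38.p6. The filter asked for a signal over the array's 40th percentile in 6 or more arrays, which 31932 probe sets met, and the one with the highest mean represented its gene. limma 3.58.1 in R 4.3.3 (with data.table, version 1.17.8) was fitted on log2(signal + 20) over all 29 arrays in 4 groups with a variance trend, after tests on simulated data, with Benjamini-Hochberg adjustment over 14602 genes and a threshold of 0.05. Fold changes on this scale understate changes of weak signals.

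Groups came from source labels, and replicate numbers only order samples. The genes named are the listed members, the called or leading members of the other lists in the tumour comparisons, and the 10 genes most like the members' mean z-score. Members, lists and tests were chosen with earlier results of these data known. Alternatives covered offset, filter, scaling, probe set choice, variance model, groups fitted, the pair of number 76, the 3'/5' ratio, array sets and leaving out each array. Leaving out recurrences 2 and 3 together was added after the data were seen.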

Additional observations from a re-analysis of the deposited data

Results flagged for a closer look

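Camp in recurrence 2, at 73.4, was flagged because it stood far above the other recurrences (7.38 to 20.3): the gap to the next highest was 0.685 of the whole range on the log2(signal + 20) scale, above the critical value of Dixon's test for 6 samples. It was flagged among 20 group tests of the members' probe sets (recurrences and TI-K primaries), and chance flags about 1 group in 20. The next highest ratio was 0.555, for the brighter Mmp9 probe set in TI-K primary 3. Whether that value is a further flag depends on the critical value taken for 8 samples, so no count of flags is given. Recurrence 2 was also the highest tumour for S100a9, Ngp and Ltf.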

How the results depend on the processing

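No paired analysis was possible because replicate numbers here follow sample order and pair nothing. In recurrences against TI-KM primaries 0 neutrophil genes were called under every alternative run. The other counts of called neutrophil genes changed as follows. In recurrences against TI-K primaries, 2 became 1 with arrays scaled to a common median or with the 3'/5' ratio as a covariate (Ngp alone), 0 with the array sets as a block, within the remaining arrays or without recurrences 2 and 3, and 1 to 2 when each array was left out in turn. In TI-KM against TI-K primaries, 1 became 0 with an offset of 100, with no filter, with the pair of number 76 averaged, with the block and within the remaining arrays, and was 0 to 1 when each array was left out. Against the normal lung, recurrences had 1 call, which became 0 with an offset of 100, median scaling, only the 2 groups compared, the 3'/5' ratio or the high-18S arrays only, 2 with no filter or without recurrences 2 and 3, and 3 within the remaining arrays (Cd177, S100a8 and S100a9). TI-KM primaries had 0, which became 1 with an offset of 100, no filter, only the 2 groups compared or without recurrences 2 and 3, and 4 within the remaining arrays (also Ngp). TI-K primaries had 0, which became 1 with an offset of 100 or no filter, and 2 with only the 2 groups compared, within the remaining arrays or without recurrences 2 and 3. The call that no filter added in each of the 3 was Camp, above the filter level in the normal array alone. Leaving out each array gave 0 to 1 in all 3, and S100a9 was called in both primary groups without recurrence 2 or 6. The S100a9 change in recurrences against TI-KM primaries had no settled sign: it was -0.18 with an offset of 1, -0.08 with median scaling, -0.04 with quantile normalization, -0.12 with the 3'/5' ratio, -0.34 with the block, -1.16 within the remaining arrays, -1.10 without recurrences 2 and 3, and -0.58 to 0.52 when each array was left out. S100a8 there was 0.11 within the high-18S arrays and -0.79 to 0.06 when each array was left out. Ltf was -0.37 against TI-KM and -0.38 against TI-K primaries within the remaining arrays. Ngp in recurrences against the normal lung was 0.32 within the high-18S arrays and -0.55 to 0.05 when each array was left out. The causes were not tested. Of the other log2 changes of members under an alternative, 911 kept direction and side of the threshold, 42 lost the call and 23 gained one. Within the remaining arrays a comparison rests on 2 recurrences, 8 TI-KM and 3 TI-K primaries. Signals under the offset of 20, as for Camp, cannot be ordered.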
